A study of Sus scrofa with 8 samples.

Results

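Transforming growth factor beta (TGF-beta) is a family of secreted proteins that control growth, immune tone and the deposition of extracellular matrix. The ligands are released in a latent form bound to carrier proteins of the matrix and must be activated before they can bind. The active ligand joins a type 2 receptor, which phosphorylates a type 1 receptor, which in turn phosphorylates SMAD transcription factors; in liver, stellate cells are a well known responder and their activation by this ligand is a textbook step of fibrosis. The 9 genes described here are members of this system, chosen by name from the 18103 genes and transcripts listed. The choice was made with earlier results of these data known. They are the ligands TGFB1, TGFB2 and TGFB3, the latent TGF-beta binding protein LTBP2 and the receptors TGFBR1 and TGFBR2. The others are the signalling protein SMAD3, its inhibitor SMAD7 and the matrix protein TGFBI, named for its induction by TGF-beta.

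Hepatic RNA from male Landrace x Large White pigs was sequenced as 8 pools of 2 pigs each. The 4 Control pools were biopsies taken by laparotomy at 4 months of age, before the dietary intervention (initial state). The 4 Steatosis pools came from the same 8 animals at 6 months, after euthanasia, once they had received for 2 months a steatotic diet rich in saturated fat, cholesterol and cholate and poor in methionine and choline. Diet, age and the way of sampling cannot be told apart, there was no group of pigs kept on the control diet for the same time, and whole liver was used, so that fewer cells of a type and less RNA per cell cannot be told apart either. Values are FPKM, the fragments per kilobase of transcript, scaled to the mapped fragments of the library; read depth was not used and is not known for single values.

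The test covered the 13175 genes that reached 0.3 FPKM in 4 or more of the 8 libraries, all 9 members among them, and a gene was called at an adjusted p under 0.05 by limma on log2(FPKM + 0.1) with Benjamini-Hochberg adjustment. The whole table leaned upward in steatosis, since the median log2 fold change of the tested genes was 0.25. After median-ratio scaling, in which each library is divided by its median ratio to a common reference library, it was -0.02, and the share of calls that were higher went from 92.1% to 52.9%. Member values are therefore given on both scales where the call differs. Albumin (ALB) lay between 33168 and 71003 FPKM in all libraries, and the highest value was that of Control pool 4. Control pool 1 also held transcripts of skeletal muscle and stomach mucosa: the summed FPKM of 6 muscle markers was 2810 in that pool and at most 20.9 in the other Control pools, and that of 6 stomach markers was 1490 against at most 28.3.

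TGFB1, TGFBR1, TGFBR2 and SMAD3 were called higher in steatosis and no member was called lower by limma (none was lower at an unadjusted p under 0.05 either). This was 4 of 9 members (44.4%), beside 26.7% of all tested genes called higher and 2.28% called lower. The same 4 members were those whose Steatosis pools all exceeded every Control pool, a pattern that 29.6% of tested genes showed. Only TGFB1 passed the stricter limits (adjusted p under 0.01, more than 2-fold), which 6.35% of tested genes met in either direction. The median log2 fold change of the 9 members was 0.60, against 0.25 over all tested genes. After median-ratio scaling these medians were 0.33 and -0.02, and 2 members, TGFB1 and SMAD3, were called higher beside 11.4% of tested genes. Comparing pools of the same number, 6 of 9 members were higher in steatosis in each of the 4 numbers (TGFB1, TGFB3, TGFBR1, TGFBR2, SMAD3 and SMAD7), as were 44.1% of tested genes.

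**Figure D1:**
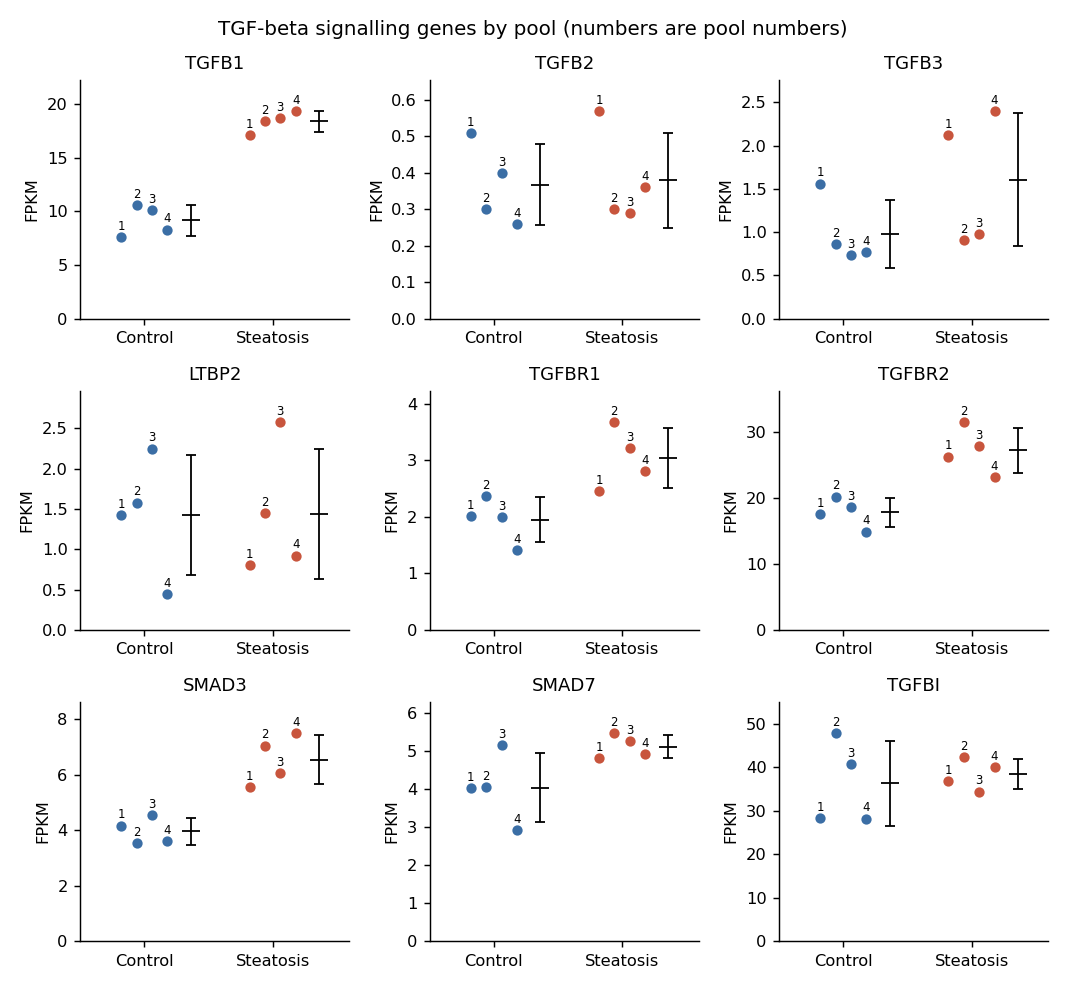
FPKM of each member in the 4 Control (blue) and 4 Steatosis (red) pools, with the pool number above each point and the mean ± SD as a black bar beside it; every y axis is linear and starts at 0. The 2 groups separate in TGFB1, TGFBR1, TGFBR2 and SMAD3 and overlap in the other 5 members.

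Among the ligands, TGFB1 was both the most abundant and the only one called higher. TGFB1 (gene ID 397078, Sscrofa11.1 chromosome 6, 49332169 to 49348642) encodes the isoform that predominates in most adult tissues. Its level was 7.62, 10.55, 10.15 and 8.3 FPKM in Control pools 1 to 4 and 17.09, 18.43, 18.69 and 19.37 FPKM in Steatosis pools 1 to 4. The groups did not approach each other, and the steatosis values were also closer together: the coefficient of variation was 15.5% in Control and 5.2% in Steatosis pools. The means were 9.16 ± 1.42 and 18.4 ± 0.956 FPKM (SD, n = 4 pools each), which is 1.01 ± 0.12 as a log2 fold change (SE, limma adjusted p = 0.000414), and 7.56% of tested genes had a larger one. Between pools of the same number the log2 ratio ran from 0.80 in pool 2 to 1.21 in pool 4. The call held after median-ratio scaling, at a log2 value of 0.73 (adjusted p = 0.00178), but on that scale the change was under 2-fold. It was also under the stricter limits when Control pool 1, Control pool 4 or Steatosis pool 4 was left out, the lowest log2 fold change without 1 library being 0.93.

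TGFB2 (397084, chromosome 10, 8306136 to 8435307), an isoform best known from development, was the member with the lowest level, and only 2.53% of tested genes lay below it. Its FPKM was 0.51, 0.3, 0.4 and 0.26 in Control pools and 0.57, 0.3, 0.29 and 0.36 in Steatosis pools 1 to 4. In both groups pool 1 was the highest and the ranges lay over each other. The log2 fold change was 0.03, with a 95% interval from -0.56 to 0.62 (adjusted p = 0.936), so a change smaller than these bounds was not detectable; after median-ratio scaling the sign turned, at -0.19.

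TGFB3 (397400, chromosome 7, 99133873 to 99162239), the third isoform and the one found in many mesenchymal cells, was 1.56, 0.86, 0.73 and 0.77 FPKM in Control pools and 2.12, 0.91, 0.98 and 2.4 FPKM in Steatosis pools 1 to 4. Steatosis pools 1 and 4 were high, while pools 2 and 3 lay within the range of the Control pools, whose own pool 1 stood above the rest. The difference was not called (log2 fold change 0.60 ± 0.35, SE, 95% interval -0.18 to 1.37, adjusted p = 0.217), although steatosis was higher in 4 of 4 pool numbers. The steatosis coefficient of variation, 47.9%, was above that of 96.3% of tested genes.

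Some matrix genes were split between the Steatosis pools about as strongly as TGFB3 was, and others were split less or the other way. The mean of pools 1 and 4 was 2.39 times that of pools 2 and 3 for TGFB3, 3.93 times for COL1A1 and 2.75 times for COL1A2 (the chains of type I collagen), 2.07 times for COL3A1 (type III collagen) and 2.64 times for DCN (decorin, a matrix proteoglycan that binds TGF-beta). The matrix genes POSTN and FN1 (fibronectin) were at 1.35 and 0.824 times, and the members TGFB1, TGFBI and LTBP2 at 0.982, 1 and 0.427 times, so that LTBP2 and FN1 ran the other way. COL1A1 was 44.18 and 75.22 FPKM in Steatosis pools 1 and 4, and 13.72 and 16.7 in pools 2 and 3, which lay within the Control range. Pools 1 and 4 were the highest of the Steatosis pools in 7 of 9 target genes of the pathway list, in 2 of 9 members (TGFB2 and TGFB3) and in 23.5% of all tested genes. They were also the highest in 4 of 5 bile duct markers tested, among them KRT19 and SOX9 at 2.97 and 3.43 times the mean of pools 2 and 3. The remaining bile duct marker, SPP1, ran the other way. It was 74.38 and 103.63 FPKM in Steatosis pools 1 and 4, and 226.52 and 201.44 FPKM in pools 2 and 3. These genes were singled out after their values were seen, and what part the sampled tissue has in this split was not tested.

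**Figure D2:**
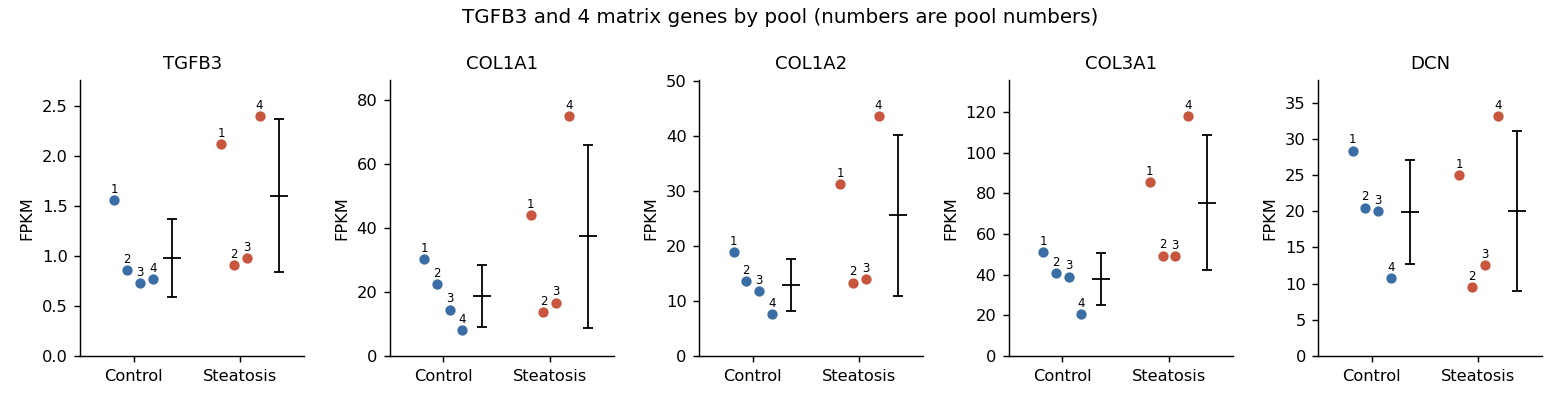
FPKM of TGFB3, COL1A1, COL1A2, COL3A1 and DCN in each Control (blue) and Steatosis (red) pool, numbered 1 to 4, with mean ± SD as black bars. In each of the 5 genes Steatosis pools 1 and 4 lie above pools 2 and 3.

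The sum of the 3 ligands was between 9.33 and 11.71 FPKM in Control and between 19.64 and 22.13 FPKM in Steatosis pools. TGFB1 made up most of it in every pool. Its share was 78.6, 90.1, 90 and 89% in Control pools 1 to 4 and 86.4, 93.8, 93.6 and 87.5% in Steatosis pools 1 to 4. The mean share was 86.9 ± 5.54% and 90.4 ± 3.94% (SD, n = 4), and this difference did not exceed the spread (two-sided exact permutation p = 0.371, adjusted over 5 ratios 0.464).

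LTBP2 (100514300, chromosome 7, 97744974 to 97852848) belongs to the family of latent TGF-beta binding proteins and is a component of matrix microfibrils; unlike its relatives it is not known to bind the latent ligand itself. It was the most variable member. Its FPKM was 1.42, 1.58, 2.25 and 0.44 in Control pools and 0.8, 1.45, 2.58 and 0.92 in Steatosis pools 1 to 4. Pool 3 was the highest in both groups, and 2 of 4 pool numbers were higher with the diet. On the log2 scale the change was 0.06 ± 0.47 (SE, 95% interval -0.99 to 1.11, adjusted p = 0.936), so a 2-fold rise, and a fall of almost that size, lay within it. Leaving out Control pool 4 alone took it to -0.38 and leaving out Steatosis pool 3 to -0.25, and median-ratio scaling gave -0.19.

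Both receptors were higher in steatosis. TGFBR2 (100038019, chromosome 13, 16784370 to 16875828), the type 2 receptor that binds the ligand first, was 17.52, 20.2, 18.63 and 14.88 FPKM in Control pools and 26.25, 31.49, 27.84 and 23.13 FPKM in Steatosis pools 1 to 4. In each group pool 2 was the highest and pool 4 the lowest, and the log2 ratio between pools of the same number stayed between 0.58 and 0.64. TGFBR2 thus rose by a log2 fold change of 0.61 ± 0.13 (limma SE, adjusted p = 0.00663). After median-ratio scaling it was 0.33 with an adjusted p of 0.0525, just outside the call, and the groups still did not overlap (18.7 to 20.4 against 20.7 to 28.3 scaled FPKM).

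TGFBR1 (396665, chromosome 1, 240842735 to 240918267), the type 1 receptor kinase that phosphorylates SMAD2 and SMAD3, was much lower: 2.02, 2.37, 2 and 1.41 FPKM in Control pools and 2.45, 3.68, 3.22 and 2.81 FPKM in Steatosis pools 1 to 4. The lowest Steatosis pool lay just above the highest Control pool. Its log2 fold change of 0.62 ± 0.18 (limma SE; adjusted p = 0.0312) was called, and this was the least secure of the 4 calls. After median-ratio scaling it was 0.35 (adjusted p = 0.124) and the groups overlapped. The call was also lost without Control pool 3 (adjusted p = 0.0511), Control pool 4 (0.0504), Steatosis pool 2 (0.0885), Steatosis pool 3 (0.0775) or Steatosis pool 4 (0.0605).

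The balance between the receptors did not move detectably. The log2 ratio of TGFBR2 to TGFBR1 was 3.14 ± 0.12 in Control and 3.13 ± 0.17 in Steatosis pools (SD, n = 4, two-sided exact permutation p = 0.886, adjusted over 5 ratios 0.886). Such a ratio depends on the scaling of the libraries only through the 0.1 FPKM added to both genes; with 1 FPKM added the difference was 0.13 (exact permutation p = 0.0857) instead of -0.01.

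SMAD3 (397260, chromosome 1, 164998457 to 165124455), which carries the signal of the activated receptors to the nucleus, rose. Its FPKM was 4.16, 3.52, 4.55 and 3.59 in Control pools and 5.56, 7.05, 6.06 and 7.5 in Steatosis pools 1 to 4. The groups did not overlap, and the log2 ratio of same-numbered pools was 0.41 in pools 1 and 3 and 0.98 and 1.04 in pools 2 and 4. For the groups it was 0.71 ± 0.14 (SE, adjusted p = 0.00442); after median-ratio scaling it was 0.43 with an adjusted p of 0.042.

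SMAD7 (100521305, chromosome 1, 98512800 to 98543924) is an inhibitory SMAD that blocks the type 1 receptor and is itself induced by the pathway. It was 4.02, 4.04, 5.15 and 2.91 FPKM in Control pools and 4.81, 5.46, 5.25 and 4.91 FPKM in Steatosis pools 1 to 4. Control pool 3 lay among the Steatosis pools, and Control pool 4 was the lowest. SMAD7 was not called, at 0.36 ± 0.16 on the log2 scale (SE, adjusted p = 0.12); without Control pool 3 it was 0.48 with an adjusted p of 0.0411, and after median-ratio scaling it was 0.09. SMAD7 and SMAD3 had nearly equal mean levels in Control pools, with SMAD3 above SMAD7 in pools 1 and 4 and below it in pools 2 and 3. In steatosis SMAD3 was above SMAD7 in every pool. The log2 ratio of SMAD7 to SMAD3 was 0.01 ± 0.23 in Control and -0.34 ± 0.19 in Steatosis pools (SD, n = 4); it was lower in steatosis in 4 of 4 pool numbers, but the groups overlapped and the difference was not called (two-sided exact permutation p = 0.0857, adjusted over 5 ratios 0.19).

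TGFBI (100519300, chromosome 2, 138191793 to 138225373), a secreted matrix protein that binds collagens and integrins, had the highest level of the members. Its FPKM was 28.36, 47.86, 40.77 and 28.17 in Control pools and 36.84, 42.3, 34.38 and 40 in Steatosis pools 1 to 4. All Steatosis pools lay within the Control range. The log2 fold change was 0.11 ± 0.17 (SE, 95% interval -0.27 to 0.50, adjusted p = 0.647); after median-ratio scaling it was -0.17. The interval leaves out a 2-fold rise of the size seen in TGFB1.

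Relative to TGFB1, TGFBI was lower in every Steatosis pool than in any Control pool. The log2 ratio of TGFBI to TGFB1 was 1.88, 2.17, 2.00 and 1.75 in Control pools and 1.10, 1.19, 0.88 and 1.04 in Steatosis pools 1 to 4. The difference of -0.90 corresponds to a ratio 0.537 times that of Control. The two-sided exact permutation p was 0.0286, the smallest that 4 pools against 4 can give. After adjustment over the 5 ratios it was 0.143, and the difference was not called. No other ratio reached 0.0286, so this adjusted value could not have been lower however far the groups lay apart. With pools of the same number taken as pairs, the exact permutation p was 0.125, the smallest that 4 pairs can give. The log2 ratio of LTBP2 to TGFB1 was -2.77 ± 0.82 in Control and -3.72 ± 0.69 in Steatosis pools (SD, n = 4); it was lower in 4 of 4 pool numbers, with an exact permutation p of 0.114 (adjusted 0.19).

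**Figure D3:**
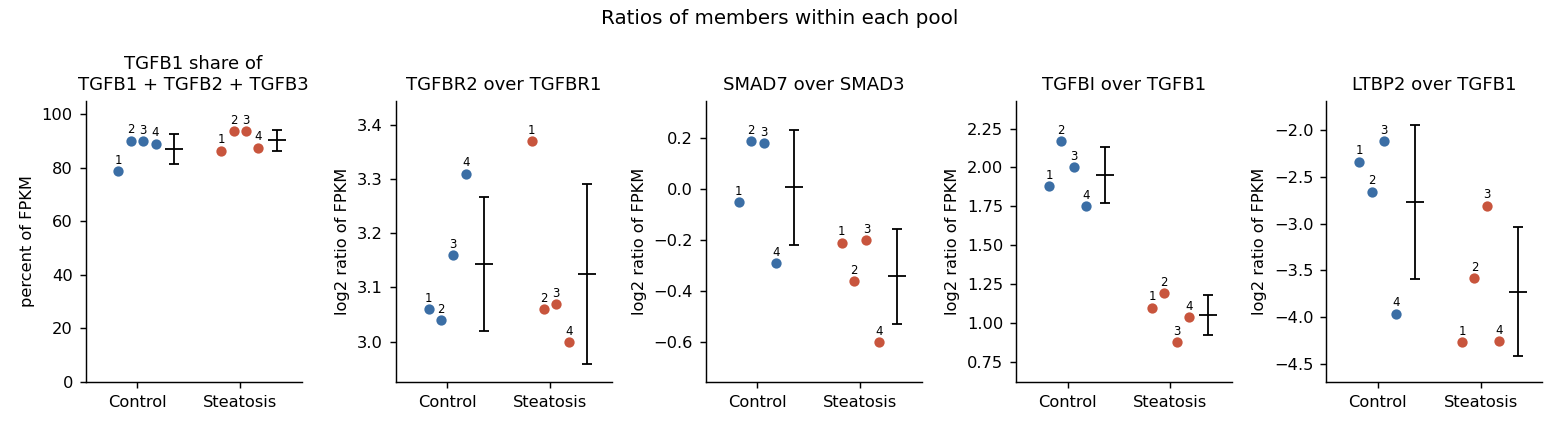
Ratios of members within each pool: the share of TGFB1 among the 3 ligands in percent (axis from 0) and 4 log2 ratios of FPKM + 0.1 (axes do not start at 0), for Control (blue) and Steatosis (red) pools numbered 1 to 4, with mean ± SD as black bars. The groups separate in TGFBI over TGFB1 and overlap in the other 4 ratios.

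In Control pools the order of mean levels was TGFBI, TGFBR2, TGFB1, SMAD7, SMAD3, TGFBR1, LTBP2, TGFB3 and TGFB2. The pool ranges of neighbours overlapped for SMAD7 and SMAD3, for TGFBR1 and LTBP2, and for LTBP2 and TGFB3, and were apart for the others. In Steatosis pools SMAD3 stood above SMAD7 and TGFB3 above LTBP2, and only the ranges of TGFB3 and LTBP2 overlapped. FPKM is a level per length, so this order compares transcripts, not proteins.

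**Figure D4:**
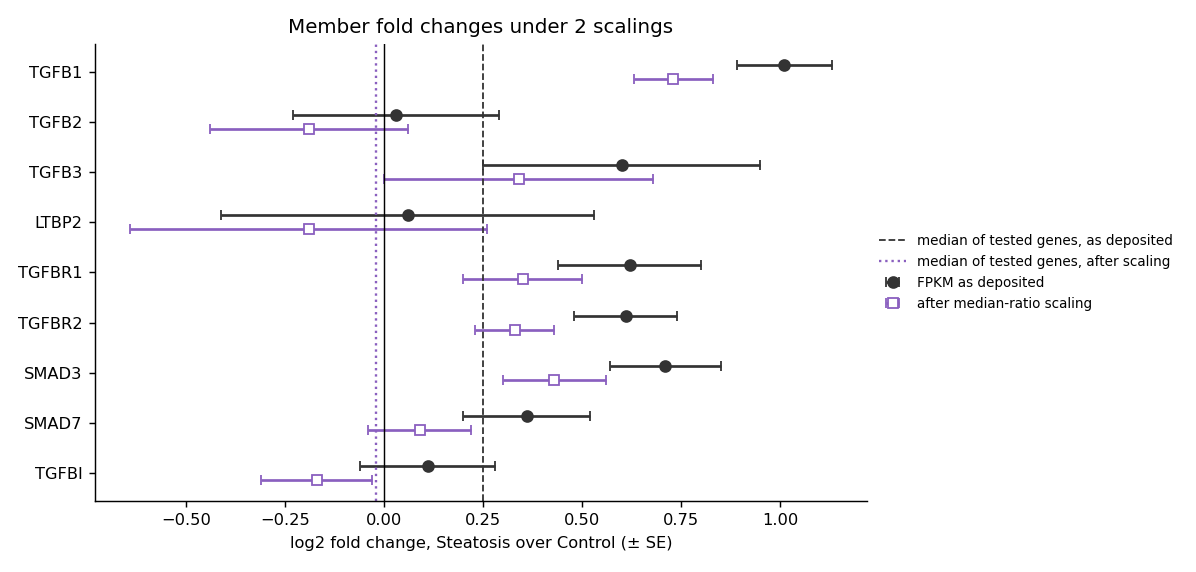
Log2 fold change of each member, Steatosis over Control, with SE, for FPKM as deposited (black circles) and after median-ratio scaling (open purple squares); the dashed and dotted lines are the medians of the 13175 tested genes on each scale, 0.25 and -0.02. Every member moves left by a similar amount, and TGFB2, LTBP2 and TGFBI change sign.

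A total of 4 members share map positions with another gene in RefSeq, and whether the authors counted reads by strand is not given in the sources used here. The 373 bases that TGFB1 shares with LOC110261354 hold a neighbour of low level (0.522 ± 0.435 FPKM in Control and 1.6 ± 0.549 in Steatosis pools, SD, n = 4), and its log2 fold change was 1.84 (adjusted p = 0.0612). The neighbours of SMAD3 (AAGAB), TGFB3 (IFT43) and LTBP2 (ISCA2) had log2 fold changes of 0.10, 0.46 and 0.18, and none of the 4 neighbours was called.

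Around the members, a list of 60 other genes of the pathway was examined by role. Of the 58 that passed the filter, 16 were called higher (27.6%, beside 26.7% of all tested genes) and none lower by limma (23 and 0 at an unadjusted p under 0.05), with a median log2 fold change of 0.35. After median-ratio scaling 5 were called higher, beside 11.4% of all tested genes. The integrin subunit ITGAV was then the 1 called lower (log2 fold change -0.50, limma adjusted p = 0.0472). On that scale 1336 of the 13175 tested genes were called lower. The list as a whole was thus close to the background. Differences between roles were not tested.

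The largest change was in a receptor. ACVRL1, the type 1 receptor of endothelium that responds to BMP9 and BMP10, was 1.88, 2.37, 2.29 and 1.37 FPKM in Control pools and 9.07, 12.96, 12.39 and 9.67 FPKM in Steatosis pools 1 to 4, which is 2.43 ± 0.19 as a log2 fold change (SE, adjusted p = 4.66e-05). Its co-receptor endoglin (ENG) rose from 17.7 ± 2.51 to 33.2 ± 2.91 FPKM (SD, n = 4, log2 fold change 0.91, adjusted p = 0.00074). The other 7 receptors and co-receptors were not called, among them betaglycan (TGFBR3), the co-receptor that presents TGF-beta to TGFBR2, at a log2 fold change of 0.29 (adjusted p = 0.254). Among 9 related ligands tested, the 2 called higher were GDF2, which encodes BMP9, and BMP10, with log2 fold changes of 0.68 and 0.73; neither was called after median-ratio scaling (adjusted p = 0.0852 and 0.0951). The activin subunits INHBC and INHBE, the most abundant of these ligands, were not called (0.56 and -0.11).

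Of 6 other SMAD genes, 4 were called higher. SMAD6, an inhibitory SMAD of the BMP branch, went from 1.21 ± 0.102 to 2.53 ± 0.275 FPKM (SD, n = 4, 2.01-fold on the log2(FPKM + 0.1) scale, adjusted p = 0.000753) and did not overlap between groups. SMAD2, the partner of SMAD3, and SMAD4, the common partner of all receptor SMADs, had log2 fold changes of 0.56 (adjusted p = 0.00955) and 0.35 (0.0347). SMAD9 was low and had the widest error of the 4 (1.28 ± 0.40, SE, adjusted p = 0.0372). SMAD1, the most abundant, and SMAD5 had values of 0.13 and 0.04 and were not called. After median-ratio scaling SMAD6 was the only one of these 4 still called (adjusted p = 0.00318).

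Of 13 genes of latency and activation, 5 were called higher. They were LTBP1 and LTBP3, which bind latent TGF-beta in the matrix (log2 fold changes 0.84 and 0.77), LRRC32 and NRROS, which hold it at cell surfaces (0.83 and 0.79), and the membrane protease MMP14 (0.46). After median-ratio scaling LTBP1 and NRROS were still called (adjusted p = 0.0177 and 0.00779). FURIN, which cleaves the TGF-beta precursor, and ITGB1, the most abundant integrin subunit of the list, were not called (0.06 and 0.27). LTBP4, the remaining family member, was at 0.43 (adjusted p = 0.251).

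Of 12 inhibitors and regulators only BAMBI, a pseudoreceptor that dampens the signal, was called higher (log2 fold change 0.62, adjusted p = 0.0153), and it was not called after median-ratio scaling (0.36, adjusted p = 0.118). FKBP1A, which binds the resting type 1 receptor, had nearly equal means of 93.8 ± 11.5 and 93.7 ± 6.66 FPKM. DCN was at -0.08 (adjusted p = 0.892).

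Of 9 target genes, 2 were called higher. They were TIMP1, an inhibitor of matrix proteases (2.3-fold, adjusted p = 0.0234) and POSTN, the matrix protein periostin (log2 fold change 0.54, adjusted p = 0.0147). Neither was called after median-ratio scaling. Fibronectin (FN1), at 453 ± 124 and 634 ± 101 FPKM, was not called (log2 fold change 0.52, adjusted p = 0.0913), nor were COL1A1, COL1A2 and COL3A1 (0.81, 0.86 and 0.97, adjusted p = 0.301, 0.131 and 0.0545). ACTA2, the actin of activated stellate cells and smooth muscle, and TAGLN had values of -0.14 and -0.25 and were not called. Their 95% intervals ran from -1.27 to 0.99 and from -1.31 to 0.80, so a 2-fold fall and a smaller rise lay within each. Control pool 1, the pool with the muscle transcripts, was the highest of all pools, at 55.95 and 50.32 FPKM. The other Control pools were at 9.89 to 39.82 and 10.31 to 29.02 FPKM, and the Steatosis pools at 15.86 to 28.51 and 11.56 to 29.29 FPKM. ACVRL1 and SMAD6 were the 2 genes of the list beyond the stricter limits; apart from the 12 that the naming rule gives, the genes named here were chosen after their values were seen.

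**Figure D5:**
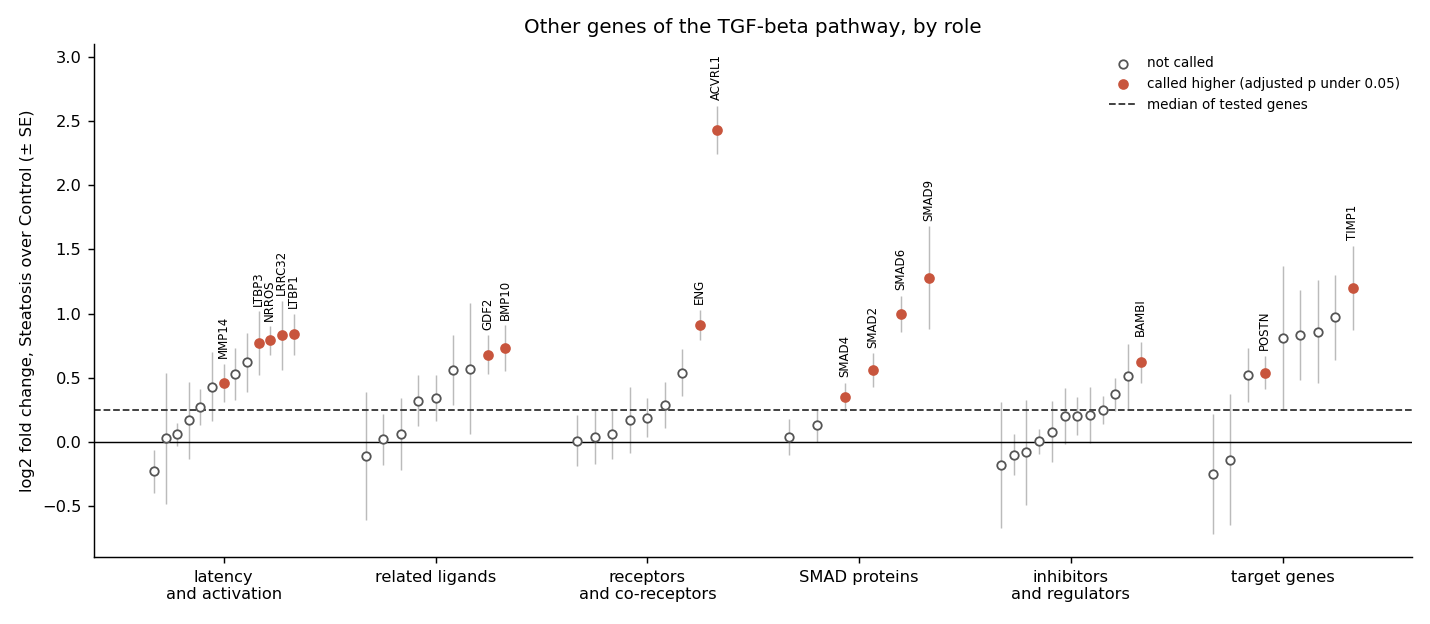
Log2 fold change (Steatosis over Control, ± SE) of the 58 tested pathway genes by role, with genes called higher in red and named, the others open; the dashed line is the median of 13175 tested genes, 0.25. ACVRL1 lies highest at 2.43, with 4 of 6 SMAD genes and 1 of 12 inhibitors and regulators called.

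Marker lists of other cell types are given beside these results, to be read against the 26.7% of tested genes called higher and the 11.4% after median-ratio scaling. Lower calls were 300 of the 13175 tested genes as deposited and 1336 after that scaling. Of 12 macrophage markers 9 were called higher and none lower (6 higher and 1 lower after scaling), and their summed level was 913 to 1174 FPKM in Control and 1938 to 2410 FPKM in Steatosis pools, or 895 to 1151 and 1314 to 1533 FPKM without GPNMB. TREM2, among the 9, reached 0.3 FPKM in the 4 Steatosis pools only (at most 0.29 FPKM in Control). It passed the filter through Steatosis alone and could not have been called lower. Of 10 stellate cell markers 8 were called higher and 1, lumican (LUM), lower (4 and 1 after scaling); COLEC11 and COLEC10, the most abundant, had log2 fold changes of 0.98 and 0.88. The summed stellate level was 62.5 to 140 FPKM in Control and 115 to 136 FPKM in Steatosis pools, where the 140 was that of Control pool 1 and the other Control pools reached at most 76.8. In Control pool 1, the pool with the muscle transcripts, DES alone was 71.55 FPKM. It was 3.23 to 7.39 FPKM in the other Control pools. Of 8 endothelial markers 2 were called higher, PECAM1 (0.74) and KDR (0.52), a share of 25% that is near the background, and 1 after scaling; the summed level was 66.8 to 76.2 FPKM in Control and 89.1 to 117 FPKM in Steatosis pools.

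Of 5 bile duct markers tested only SPP1, which macrophages also express, was called higher, and the sums were 10.1 to 24.6 and 93 to 234 FPKM. Without SPP1 the sums overlapped, at 4.06 to 19.9 and 7.57 to 18.6 FPKM. Of 9 hepatocyte rows 2 were called higher, both listed as transferrin (TF, log2 fold changes 0.61 and 0.29), and neither was after scaling, when SERPINA1 and CPS1 were lower (adjusted p = 0.0211 and 0.0364). The hepatocyte median was -0.03, and the sums without ALB, which makes up most of the total, overlapped at 15371 to 18454 and 16082 to 19194 FPKM. No T and NK cell marker was called by limma (0 also at an unadjusted p under 0.05), 1 of 4 neutrophil markers tested (CSF3R) was higher, and no red blood cell marker was called by limma (1 was lower at an unadjusted p under 0.05). After median-ratio scaling 1 red blood cell marker, HBB, was called lower (log2 fold change -1.65, limma adjusted p = 0.0378). No marker of these 8 liver and blood lists was at 0 in all libraries. The part of cell composition in the rises of TGFB1, TGFBR1, TGFBR2 and SMAD3 was not tested. Without Control pools 1 and 4 together, TGFB1, TGFBR2 and SMAD3 were still called higher and TGFBR1 was not (adjusted p = 0.115).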

How the data were processed

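RNA of 8 pools was extracted, poly-A selected and sequenced by the authors, who cleaned the reads, mapped them with HISAT2 2.0.4 to Sus scrofa 11.1, assembled transcripts and estimated expression with Bowtie2 2.2.5 and RSEM 1.2.12 (versions as in the submitters' processing notes). The deposited values are FPKM, and the sources used here name no further scaling of one library to another. A further 4 deposited tables hold the authors' own fold changes and p-values for single pairs of pools and were not used.

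Members were the rows carrying the 9 symbols, and coordinates came from RefSeq (Sscrofa11.1). Genes with at least 0.3 FPKM in 4 of 8 libraries were compared on log2(FPKM + 0.1) with limma 3.58.1 (R 4.3.3, mean-variance trend, group as the only term) and adjusted over all 13175 genes; fold changes on this scale understate those of low genes. For member means and 5 ratios an exact permutation test (two-sided) was run with scipy 1.17.1. Members and gene lists were chosen with earlier results of these data known. Of the pathway list, genes beyond the stricter limits were named (at most 4 a role), then the most abundant up to 2 a role, and at most 2 a marker list. A gene of the pathway list is not reported here and was left out of its counts. Of 6 bile duct markers 5 were listed, and TF was listed under 2 gene IDs.

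The fit was tested on simulated data for 13175 genes: of 100 genes with a true log2 change of 1 it found 63, of 100 with a change of 2 it found 96, and it called 7 of 12975 unchanged genes. The simulated libraries were independent and held no upward lean of the whole table and no shared animals. These counts therefore do not bear on the scaling between libraries or on the pairing. Read depth was not used, so precision is given as the spread between pools, which for pooled animals is smaller than that between pigs. The main fit and the exact permutation tests were unpaired. Libraries with the same pool number were treated as a pair only in the comparisons by pool number and in the replicate block. Deviations from the group means over the tested genes correlated at 0.16, 0.35, 0.32 and 0.25 between pools 1 to 4 of both groups. Between Control and Steatosis pools of different numbers the correlations ran from -0.20 to 0.03. The animals were the same in both groups, but no source used here states that a pool number stands for the same 2 pigs at both times. Alternatives were other scalings, filters and a pseudocount of 1, the pool number as a block, and leaving out each library.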

Additional observations from a re-analysis of the deposited data

Results flagged for a closer look

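In the 52 groups of 4 pools examined (9 members, 5 ratios and 12 named pathway genes in each condition), 2 held a pool far from the other 3 by Dixon's test at the 95% level, and chance alone flags about 1 in 20 such groups. TGFB3 was 1.56 FPKM in Control pool 1 and 0.73 to 0.86 FPKM in the other Control pools. The share of TGFB1 among the 3 ligands was 78.6% in Control pool 1 and 89 to 90.1% in the others, which draws on the same TGFB3 value. Control pool 1 is the pool with the muscle and stomach transcripts. Without it the log2 fold change of TGFB3 was 0.83 (adjusted p = 0.0965), and the part of these transcripts in its value was not tested.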

How the results depend on the processing

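A total of 17 alternatives were run, of which median-ratio scaling together with the replicate block, and the omission of Control pools 1 and 4 together, were chosen after seeing the data. TGFB1 was called higher in all 17 (log2 fold change 0.73 to 1.08, adjusted p 0.000352 to 0.00391 by limma), and no member was called lower in any. TGFBR2 was called in 15, SMAD3 in 16 and TGFBR1 in 7. Of the main count of 4 members called higher, 2 remained with median-ratio scaling and 1 with median-ratio scaling and the replicate block, where TGFBR2 (adjusted p = 0.0571) and SMAD3 (0.0688) were lost. Members beyond 2-fold fell from 1 to 0 with median-ratio scaling (also with the block), upper-quartile scaling, a pseudocount of 1 and without Control pools 1 and 4, and ranged from 0 to 1 over the omissions of 1 library. Pathway genes called higher, 16 with the settings of the report, were 5 with median-ratio scaling, with or without the block, and with upper-quartile scaling, and 11 without Control pools 1 and 4; omitting 1 library gave 10 to 18, the lowest without Steatosis pool 4. Pathway genes called lower were 1 with median-ratio scaling and 0 with the settings of the report. The replicate block alone changed no member's call (4 called higher, adjusted p of TGFBR1 0.0235); for the ratios it allows no p under 0.125.

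The direction turned only in members that were not called. With median-ratio scaling (with or without the block) the log2 fold change was -0.19 for TGFB2, -0.17 for TGFBI and -0.19 for LTBP2; with upper-quartile scaling -0.15, -0.12 and -0.15; and without Control pools 1 and 4 it was -0.21 for TGFBI and -0.51 for LTBP2. Omitting 1 library gave -0.14 to 0.17 for TGFB2, 0.01 to 0.26 for TGFBI and -0.38 to 0.33 for LTBP2. The difference in log2 TGFBR2/TGFBR1 went from -0.01 to 0.13 (exact permutation p = 0.0857) with a pseudocount of 1, which weighs more on the lower TGFBR1. SMAD7 was called in 1 alternative, without Control pool 3. The stricter filter left out TGFB2 and TGFB3. The causes of the other changes were not tested.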
